A study of Mus musculus with 20 samples.

Results

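Cytochrome P450 enzymes of families 1, 2 and 3 are heme-containing monooxygenases of the endoplasmic reticulum that oxidize drugs, steroids, fatty acids and other lipophilic molecules, and the liver is their main site of expression. They take electrons from NADPH through the reductase encoded by Por. Many of them are induced by ligand-activated receptors, chiefly the aryl hydrocarbon receptor (Ahr), the pregnane X receptor (Nr1i2) and the constitutive androstane receptor (Nr1i3), and several differ between male and female mice. The genes described here were all rows of the liver count table whose gene symbol is Cyp, followed by 1, 2 or 3, a letter and a number. This rule found 58 of the 48440 genes in the table, in 16 subfamilies. Of these, 48 passed the filter on low counts, which left 16071 genes for testing.

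The livers came from wild-type female C57BL/6 mice, aged 8 weeks when the experiments were run, that received corticosterone (CORT) or vehicle together with injections of an antibody for 5 weeks. The antibody was either a neutralizing monoclonal against acyl-CoA-binding protein (αACBP), also called DBI, or an IgG2a isotype control. Under the isotype antibody there were 5 livers with vehicle (Isotype + Vehicle) and 5 with CORT (Isotype + CORT), and likewise 5 each under the other antibody (αACBP + Vehicle, αACBP + CORT). Every mouse, the controls included, was therefore injected with an antibody. The libraries held 14934926 to 20299999 counts on genes, so that 3 counts corresponded to 0.145 to 0.205 CPM (counts scaled to a common library total).

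All levels are CPM after scaling by TMM, all fold changes are log2 values with standard errors (SE) from edgeR's quasi-likelihood fit over the 20 livers, and p-values were adjusted by Benjamini-Hochberg over all 16071 genes. Calls needed both an adjusted p no higher than 0.05 and a log2 fold change of at least 1 in either direction. The comparisons share groups of livers and are therefore not independent of one another. In whole liver, fewer cells of a type and less RNA per cell cannot be told apart. The hepatocyte markers (Alb, Apoa1, Ttr, Apob, Fgb, Cps1, Tat and Hnf4a) were all measured, with summed levels between 39254 and 140529 CPM. A pair of livers stood apart. Isotype + CORT replicate 5 was the highest of the 20 livers for 14.4% of all genes and for 7 of the 48 members, and αACBP + Vehicle replicate 5 was the lowest for 16.5% of all genes and for 11 of the 48 members.

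Across the 20 livers the members together took 1.32 to 1.90% of all counts, with medians of 1.55% in Isotype + Vehicle, 1.63% in Isotype + CORT, 1.50% in αACBP + Vehicle and 1.62% in αACBP + CORT. The ranges of the groups overlapped. Per kilobase of exon, Cyp2e1, which oxidizes ethanol and acetaminophen, had the highest mean level, at 1097 CPM per kilobase. It was followed by Cyp2d26 at 631, by Cyp3a11, a major drug and steroid hydroxylase, at 294, by the coumarin hydroxylase Cyp2a5 at 288 and by Cyp2c37 at 277 CPM per kilobase. The last 3 lay close together relative to their spread between livers. At the other end, Cyp2j7, Cyp2j11, Cyp2j12, Cyp2j13, Cyp2w1, Cyp2b19 and Cyp2c66 had 0 counts in all 20 livers. Cyp2b23 had at most 4 counts in a liver, Cyp2c65 at most 7 and Cyp3a57 at most 25, and these 10 genes were not tested.

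Of all counts on members, Cyp2c took 19.5%, Cyp2e 19.3%, Cyp3a 17.8%, Cyp2d 17.7%, Cyp2a 13.5% and Cyp2b 5.21%. Summed over its 8 genes, the Cyp2d subfamily reached 2424 ± 277 CPM (SD, n = 5) in Isotype + Vehicle, 3159 ± 336 in Isotype + CORT, 2386 ± 306 in αACBP + Vehicle and 3179 ± 378 in αACBP + CORT. The CORT groups were thus higher on average under either antibody, although single livers overlapped. Cyp3a sums ran from 1834 to 2183 CPM in αACBP + Vehicle, and all 5 lay below the 2365 to 3098 CPM of Isotype + Vehicle and the 2399 to 3115 CPM of αACBP + CORT. Cyp3a11 alone had means of 724 CPM in αACBP + Vehicle and 1448 CPM in Isotype + Vehicle. Between these groups 4 of the 6 tested Cyp3a members had fold changes above 0, so the lower sum was not shared by the subfamily. Cyp2b sums ran from 788 to 917 CPM in αACBP + CORT, all above the 552 to 786 CPM of αACBP + Vehicle. For Cyp2a the highest mean was that of αACBP + Vehicle, 3020 ± 638 CPM, against 1842 ± 334 in Isotype + Vehicle, with overlapping livers. Sums were described without a test, and a read shared by members of a subfamily may be counted more than once in them.

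**Figure D1:**
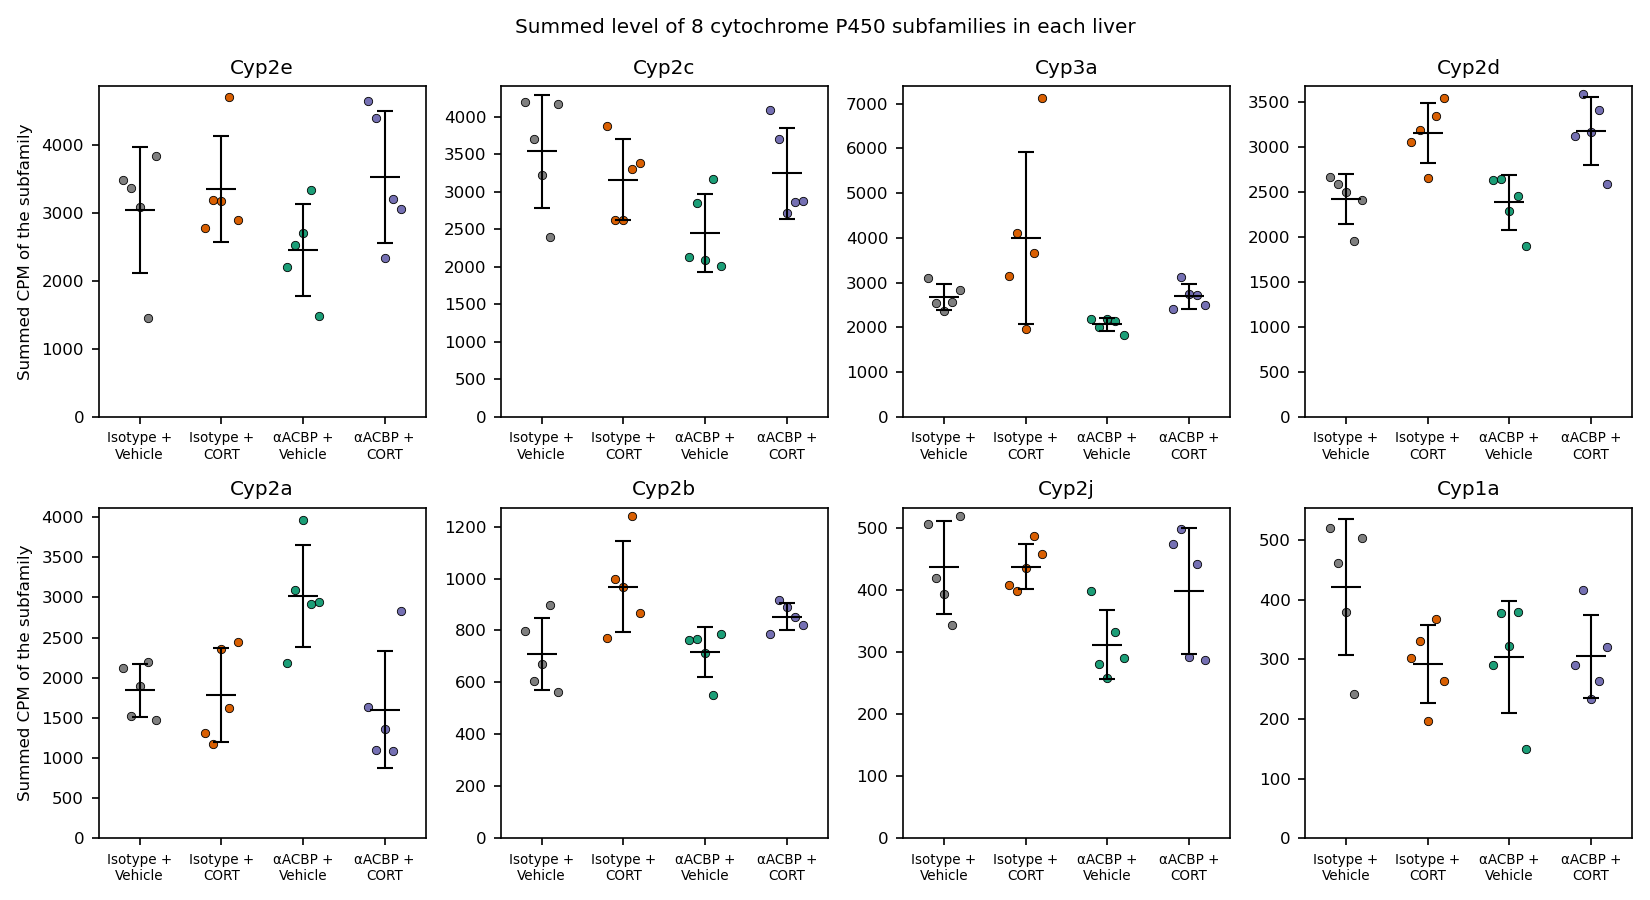
Summed CPM (vertical axes, linear, from 0) of 8 P450 subfamilies in the 4 groups; each point is 1 liver and the bars give mean ± SD (n = 5). The Cyp3a sums of αACBP + Vehicle (1834 to 2183 CPM) sit below those of Isotype + Vehicle (2365 to 3098 CPM), and 1 Isotype + CORT liver reaches 7129 CPM.

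A total of 6 members reached an adjusted p of 0.05 or less in any comparison. Cyp2d9 and Cyp2b10 were higher with CORT under the isotype, and Cyp2j5, Cyp2c50, Cyp2c38 and Cyp2c40 were lower with αACBP under vehicle. The 250 bases before the start of each of these genes are printed, since they are the stretches through which members that changed together could be compared. They come from RefSeq (GRCm38.p6), which held a window for 50 of the 58 members, and are written 5′ to 3′ on the gene's strand. Capitals mark matches, on either strand, to 7 motifs. They were the TATA box (TATAAA), the half-site of the liver factor HNF1 (GTTAAT), the half-site of many nuclear receptors (AGGTCA), the half-site of the glucocorticoid receptor (TGTTCT), the core bound by the aryl hydrocarbon receptor (GCGTG) and the D-box of circadian PAR bZIP factors (TTATGNAA). The last was the palindromic glucocorticoid response element, which contains the glucocorticoid receptor half-site. The higher members with CORT were Cyp2d9 (chr15:82452127-82452376, plus strand) and Cyp2b10 (chr7:25897408-25897657, plus strand):
Cyp2d9: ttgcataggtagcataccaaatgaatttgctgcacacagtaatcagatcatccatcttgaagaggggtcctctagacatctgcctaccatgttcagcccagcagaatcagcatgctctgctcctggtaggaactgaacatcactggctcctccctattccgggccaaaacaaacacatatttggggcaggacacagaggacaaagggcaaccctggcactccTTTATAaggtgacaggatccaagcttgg
Cyp2b10: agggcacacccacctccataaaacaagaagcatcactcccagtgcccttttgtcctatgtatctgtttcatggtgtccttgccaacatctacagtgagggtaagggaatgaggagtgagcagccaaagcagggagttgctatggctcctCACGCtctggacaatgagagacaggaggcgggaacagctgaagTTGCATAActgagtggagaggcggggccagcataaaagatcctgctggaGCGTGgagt

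The lower members with αACBP were Cyp2j5 (chr4:96664120-96664369, minus strand), Cyp2c50 (chr19:40089429-40089678, plus strand), Cyp2c38 (chr19:39463076-39463325, minus strand) and Cyp2c40 (chr19:39812815-39813064, minus strand), the last 3 in the Cyp2c cluster of chromosome 19:
Cyp2j5: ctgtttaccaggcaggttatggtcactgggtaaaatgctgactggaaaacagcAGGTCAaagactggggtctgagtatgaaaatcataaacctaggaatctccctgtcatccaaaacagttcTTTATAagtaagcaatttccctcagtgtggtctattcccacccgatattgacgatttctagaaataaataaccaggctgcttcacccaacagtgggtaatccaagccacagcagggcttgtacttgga
Cyp2c50: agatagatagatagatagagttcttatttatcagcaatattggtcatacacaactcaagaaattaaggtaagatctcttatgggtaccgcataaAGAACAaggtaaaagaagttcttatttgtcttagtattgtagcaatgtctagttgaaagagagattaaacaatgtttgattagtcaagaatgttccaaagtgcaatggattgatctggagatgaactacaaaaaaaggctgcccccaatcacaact
Cyp2c38: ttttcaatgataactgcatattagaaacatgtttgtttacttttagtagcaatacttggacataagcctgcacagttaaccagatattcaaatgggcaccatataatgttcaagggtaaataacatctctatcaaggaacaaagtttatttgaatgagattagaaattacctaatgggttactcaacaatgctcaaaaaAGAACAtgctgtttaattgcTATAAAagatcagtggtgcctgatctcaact
Cyp2c40: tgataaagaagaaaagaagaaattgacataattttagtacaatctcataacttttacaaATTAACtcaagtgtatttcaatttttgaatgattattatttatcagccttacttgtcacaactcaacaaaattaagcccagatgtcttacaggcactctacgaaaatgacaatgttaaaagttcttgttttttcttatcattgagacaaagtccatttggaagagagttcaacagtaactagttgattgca

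No motif was present in all 6 windows. Cyp2c38 held the TATA box with its first base at position -31 and Cyp2d9 held its reverse complement at -28, counted from the start site. Cyp2b10 held the aryl hydrocarbon receptor core at -9 and, in reverse complement, at -101, and the D-box in reverse complement at -58. The reverse complement of the glucocorticoid receptor half-site occurred in Cyp2c38 at -51 and in Cyp2c50 at -156. Cyp2j5 held the nuclear receptor half-site at -197 and the reverse complement of the TATA box at -128, and Cyp2c40 the reverse complement of the HNF1 half-site at -191. Over 32851 windows of the same length, the TATA box was found in 12.4%, the HNF1 half-site in 6.43%, the nuclear receptor half-site in 14%, the glucocorticoid receptor half-site in 16.1%, the aryl hydrocarbon receptor core in 28.2%, the D-box in 3.07% and the full glucocorticoid response element in 0.00913%. Among the 43 windows of tested members the shares in the same order were 48.8%, 14%, 30.2%, 25.6%, 11.6% and 6.98%, and the full glucocorticoid response element in none.

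The effect of CORT was first examined under the isotype antibody. Cyp2d9 and Cyp2b10 were higher in Isotype + CORT than in Isotype + Vehicle, by 4.54-fold and 4.21-fold, and edgeR called no member lower. These were 2 of the 48 tested members, 4.17%, where 1.94% of all genes tested were called. DESeq2 called 4 members (Cyp2d9 and Cyp2b10 higher, Cyp2a4 and Cyp2s1 lower) against 3.20% of the genes it gave an adjusted p, limma voom called 2 (Cyp2d9 higher, Cyp2a4 lower) against 1.51%, and 5 passed at an unadjusted p with the same fold limit (these 4 and Cyp2c55) against 5.54%. Of the 48 fold changes, 24 lay above 0 and 24 below, with a median of 0.03 on the log2 scale against 0.00 over all genes tested.

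Cyp2d9, a steroid hydroxylase whose expression in mouse liver is male-biased, had 36.9, 41.1, 55.3, 29.1 and 37.8 CPM in the 5 Isotype + Vehicle livers. In Isotype + CORT it had 122, 338, 42.3, 147 and 261 CPM. All Isotype + CORT livers but replicate 3 lay above the Isotype + Vehicle range. The log2 fold change was 2.18 (SE 0.42, adjusted p = 0.00789, edgeR), and the call was made with each of the 10 livers left out in turn, with log2 fold changes from 1.82 to 2.44. In the annotation 8.66% of its exon length overlaps Gm46501 and Gm54398 on the same strand and 5.27% of its 100-base words occur in other genes, so that reads may be shared with them.

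Cyp2b10, the classic target of Nr1i3, had 22.5, 10.6, 12.9, 8.52 and 11.5 CPM in Isotype + Vehicle. With CORT it had 24.8, 47.9, 9.88, 145 and 50.2 CPM. Replicate 3 again fell within the vehicle range, and replicate 4 was the highest of the 20 livers. The log2 fold change was 2.07 (SE 0.55, adjusted p = 0.0467). Without Isotype + CORT replicate 4 it was 1.32 with an adjusted p of 0.101, and the call was also lost without Isotype + CORT replicate 2 (0.0742) or 5 (0.0735) and without Isotype + Vehicle replicate 2 (0.126), 3 (0.104), 4 (0.118) or 5 (0.115), all adjusted p-values.

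**Figure D2:**
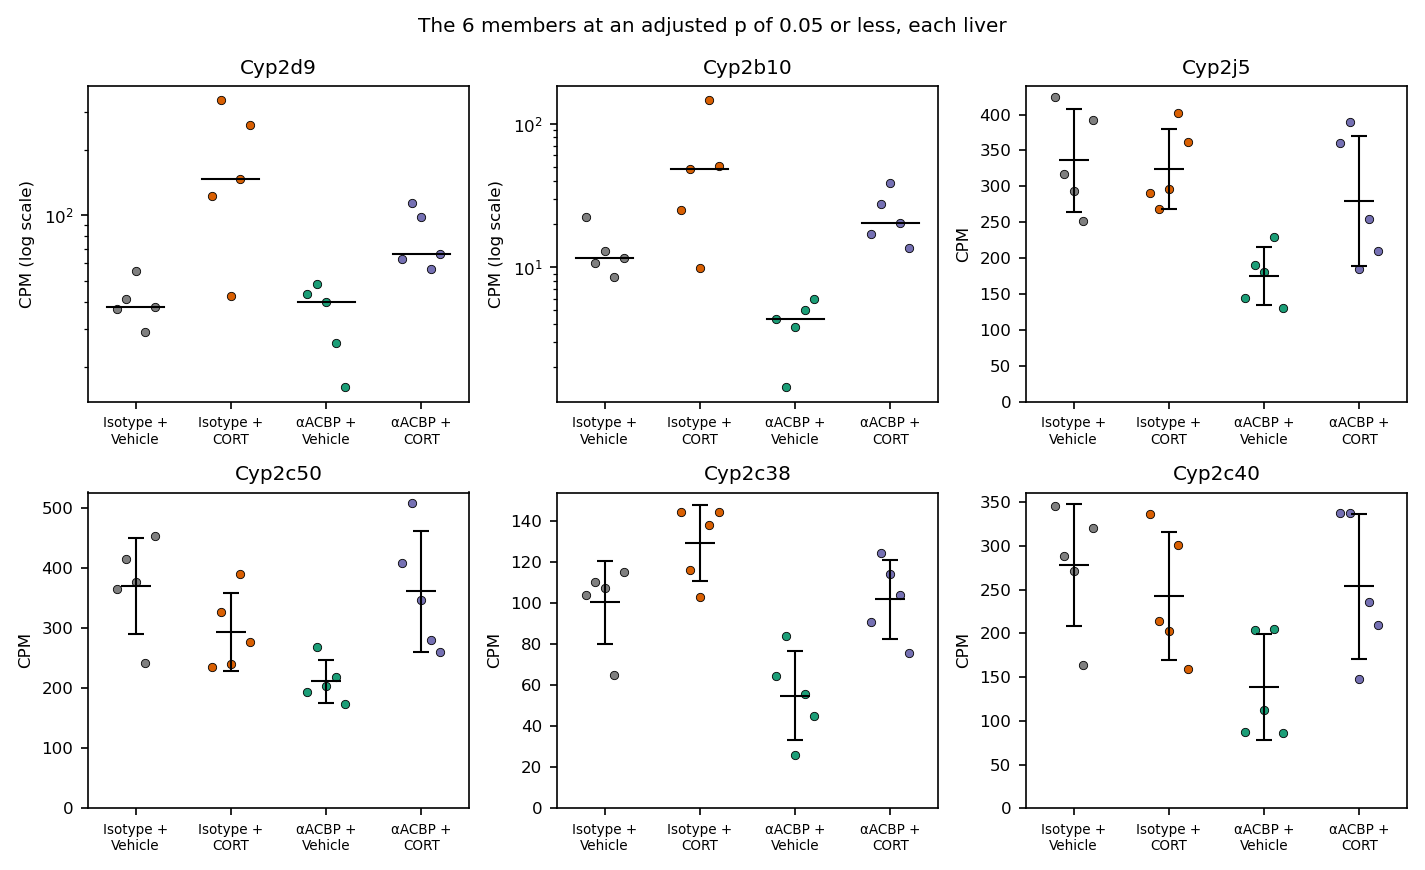
CPM of the 6 members at an adjusted p of 0.05 or less in the 4 groups (log axes for Cyp2d9 and Cyp2b10, linear axes from 0 for the others); each point is 1 liver, and lines mark the median on log axes and mean ± SD on linear axes (n = 5). Cyp2d9 reaches 338 CPM in Isotype + CORT, and the Cyp2j5 values of αACBP + Vehicle (130 to 230 CPM) lie below those of Isotype + Vehicle (252 to 425 CPM).

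Cyp2b9, a female-biased member, lay just outside the limit on p with a log2 fold change of 0.58 (SE 0.17, adjusted p = 0.0510). Its levels were 540, 370, 394, 604 and 336 CPM in Isotype + Vehicle and 560, 757, 615, 696 and 728 CPM in Isotype + CORT, and the ranges overlapped through 1 CORT liver. Of the 48 members, 3 (Cyp2d26 higher, Cyp2a4 and Cyp2c55 lower) had groups that did not overlap, where this held for 5.04% of all genes tested. None of these 3 passed the adjusted limit.

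Cyp2a4, a female-biased steroid hydroxylase, had 511, 368, 486, 464 and 384 CPM in Isotype + Vehicle and 230, 23.6, 249, 72.4 and 19.5 CPM in Isotype + CORT. All 5 CORT livers lay below all vehicle livers, but they differed widely among themselves, and the log2 fold change of -1.90 (SE 0.64) had an adjusted p of 0.126. DESeq2 and limma voom called it. Cyp2a4 shares 14.7% of its 100-base words with other genes, chiefly Cyp2a5. Cyp2c55 had 2.46 to 5.08 CPM in Isotype + Vehicle and 0 to 1.40 CPM in Isotype + CORT (log2 fold change -2.20, SE 0.87, adjusted p = 0.182). Cyp2s1 was at 0 counts in all 5 Isotype + CORT livers and at 0 to 2.29 CPM in Isotype + Vehicle, with the ranges meeting at 0, and no fold change is given for it.

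Under αACBP no member was called for CORT with edgeR, where 0.212% of all genes tested were called. At an unadjusted p with the same fold limit there were 4 (Cyp2b10 and Cyp2d9 higher, Cyp2a4 and Cyp2a5 lower) against 2.46% of all genes tested. DESeq2 called 3 against 1.16% of the genes it gave an adjusted p, and limma voom called 3 against 0.964%. Without αACBP + CORT replicate 5, Cyp2a5 (-1.94, adjusted p = 0.000741) and Cyp2b10 (2.65, adjusted p = 0.0327) passed both limits, as did Cyp2c38 without αACBP + Vehicle replicate 2 (1.09, adjusted p = 0.0243). Cyp2b10 had 4.36, 1.45, 3.80, 5.01 and 6.03 CPM in αACBP + Vehicle and 17.1, 27.4, 38.5, 20.4 and 13.6 CPM in αACBP + CORT. The groups did not overlap, and the log2 fold change was 2.50 (SE 0.57, adjusted p = 0.0681). Cyp2d9 had 43.6, 48.1, 39.9, 25.8 and 16.1 CPM without and 62.9, 114, 97.8, 56.4 and 66.0 CPM with CORT, again without overlap (1.20, SE 0.41, adjusted p = 0.218). Cyp2a4 had 744, 826, 1210, 925 and 1285 CPM without and 236, 75.4, 110, 231 and 521 CPM with CORT (-2.09, SE 0.64, adjusted p = 0.166). The groups of Cyp2b10, Cyp2d9, Cyp2d26, Cyp3a11 and Cyp2a4 did not overlap, 5 of the 48 members, against 2.74% of all genes tested.

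The effect of the antibody was compared under vehicle next. Cyp2j5 and the Cyp2c genes Cyp2c50, Cyp2c38 and Cyp2c40, which oxidize polyunsaturated fatty acids, were lower in αACBP + Vehicle than in Isotype + Vehicle, by 1.92-fold, 1.75-fold, 1.83-fold and 2.00-fold. No member passed both limits with edgeR, where 1.30% of all genes tested did. With the limit on p alone, 4 of the 48 members passed, all lower, where 5.14% of all genes tested passed in either direction. At an unadjusted p with the fold limit there were 3 (Cyp2a5 higher, Cyp2b10 and Cyp3a11 lower) against 3.34% of all genes tested. DESeq2 called 2 against 2.62% of the genes it gave an adjusted p, and limma voom 3 against 1.93%. Fold changes lay below 0 for 30 of the 48 members, with a median of -0.18 against -0.02 over all genes tested.

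Cyp2j5, an arachidonic acid epoxygenase, had 425, 317, 294, 252 and 393 CPM in Isotype + Vehicle. In αACBP + Vehicle it had 144, 191, 181, 230 and 130 CPM. The groups did not overlap, the log2 fold change was -0.94 (SE 0.21, adjusted p = 0.0115), and the adjusted p was 0.048 or less with each liver left out in turn. Without Isotype + Vehicle replicate 4 (-1.03) or αACBP + Vehicle replicate 4 (-1.06) it also passed the fold limit. None of its 100-base words occurs in another gene.

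Cyp2c50 had 365, 415, 376, 242 and 454 CPM in Isotype + Vehicle and 194, 269, 203, 219 and 174 CPM in αACBP + Vehicle. A single isotype liver, replicate 4, reached into the αACBP range (log2 fold change -0.81, SE 0.20, adjusted p = 0.0206). Cyp2c38 had 104, 110, 107, 64.7 and 115 CPM against 64.4, 83.8, 25.8, 55.6 and 44.7 CPM (-0.87, SE 0.22, adjusted p = 0.0242). Here too isotype replicate 4 was the one that overlapped. Cyp2c40, a female-biased member, had 346, 288, 271, 164 and 320 CPM against 87.1, 204, 112, 205 and 86.6 CPM (-0.9995, SE 0.28, adjusted p = 0.0365, the fold change being just short of the limit). Of its 100-base words, 29.9% occur in other genes, Cyp2c69, Cyp2c68 and Cyp2c67 among them, so its counts depend on how shared reads were assigned. Per the study's methods non-unique features were kept, so a shared read may count for several of these genes.

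These 3 Cyp2c genes crossed the adjusted p of 0.05 when single livers were left out. For Cyp2c50 this happened without Isotype + Vehicle replicate 1 (0.053), 2 (0.0591) or 5 (0.072), or αACBP + Vehicle replicate 1 (0.0617) or 5 (0.0525). For Cyp2c38 it happened without Isotype + Vehicle replicate 1 (0.0628), 2 (0.0607) or 5 (0.071), or αACBP + Vehicle replicate 5 (0.0635). For Cyp2c40 it happened without Isotype + Vehicle replicate 1 (0.114), 2 (0.0816), 3 (0.0553) or 5 (0.0985), or αACBP + Vehicle replicate 1 (0.103), 3 (0.0753) or 5 (0.102). Cyp2c40 passed both limits without Isotype + Vehicle replicate 4 (-1.14) or αACBP + Vehicle replicate 2 (-1.19) or 4 (-1.18), and Cyp2c38 without αACBP + Vehicle replicate 2 (-1.08). The log2 fold changes stayed between -1.19 and -0.69 for the 3 genes with each liver left out in turn.

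**Figure D3:**
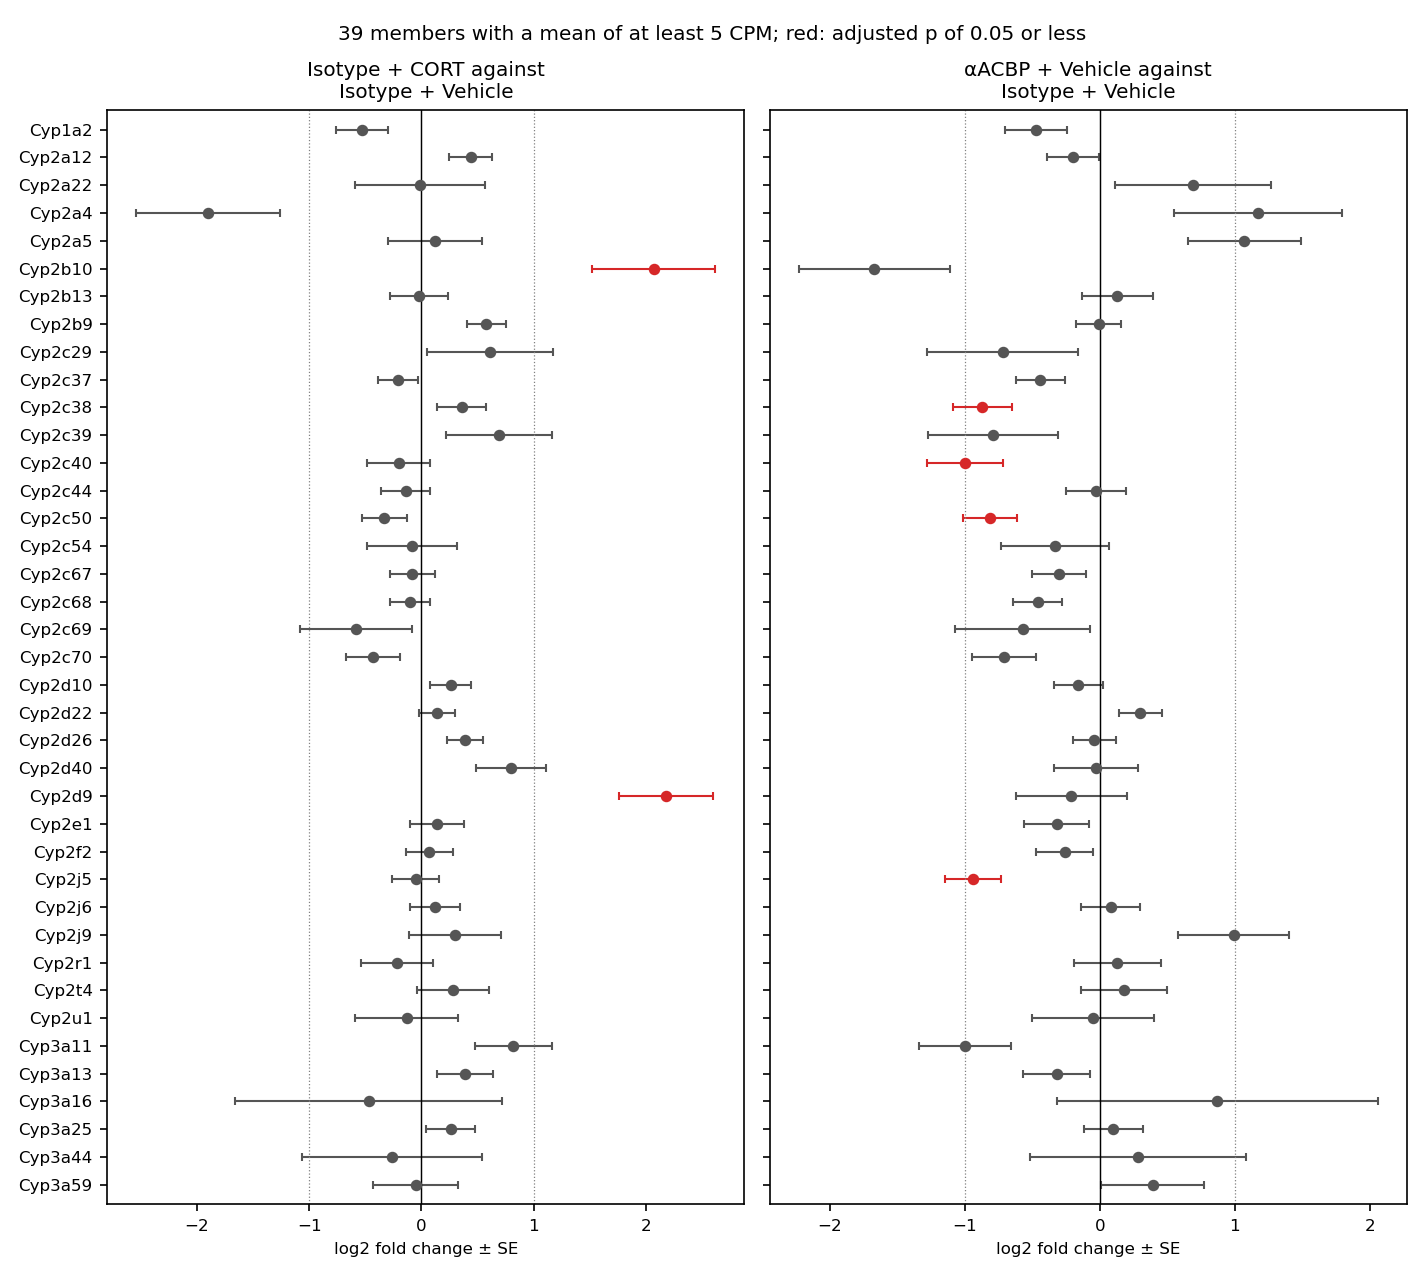
Log2 fold change ± SE (horizontal axes) of the 39 tested members with a mean of at least 5 CPM, for Isotype + CORT against Isotype + Vehicle (left) and αACBP + Vehicle against Isotype + Vehicle (right); red marks an adjusted p of 0.05 or less and dotted lines mark the fold limit of 1. Cyp2d9 (2.18) and Cyp2b10 (2.07) are red on the left, and Cyp2j5 (-0.94), Cyp2c50 (-0.81), Cyp2c38 (-0.87) and Cyp2c40 (-0.9995) on the right.

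Cyp3a11, a target of Nr1i2, had 1832, 1428, 1216, 1030 and 1734 CPM in Isotype + Vehicle and 849, 856, 790, 791 and 332 CPM in αACBP + Vehicle. The groups did not overlap, but the log2 fold change of -1.0007 (SE 0.34) had an adjusted p of 0.0841. Under CORT it had 1905, 2085, 1004, 1973 and 5840 CPM with the isotype and 1410, 1853, 1165, 1525 and 1042 CPM with αACBP, and these groups overlapped (-0.87, SE 0.34, adjusted p = 0.265). Cyp2a5 had 484, 421, 501, 554 and 393 CPM in Isotype + Vehicle and 714, 1211, 1492, 811 and 713 CPM in αACBP + Vehicle (1.07, SE 0.42, adjusted p = 0.146). With Cyp2a4, Cyp2a5 and Cyp2d22 higher and Cyp2b10, Cyp2j5 and Cyp3a11 lower, 6 of the 48 members had groups that did not overlap, against 7.13% of all genes tested.

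**Figure D4:**
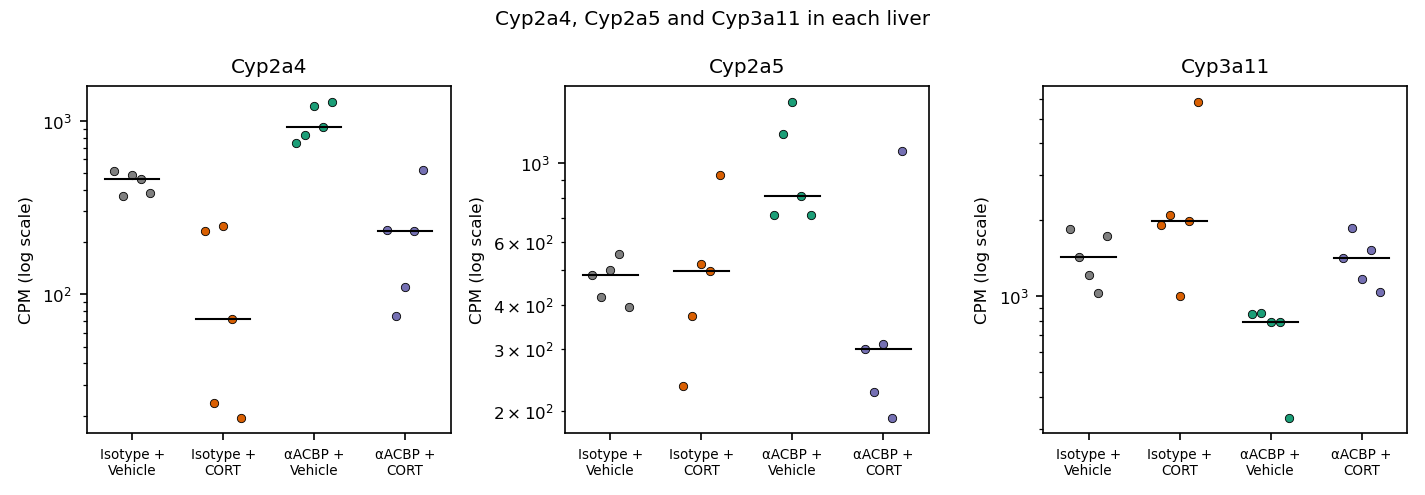
CPM (log axes) of Cyp2a4, Cyp2a5 and Cyp3a11 in the 4 groups; each point is 1 liver and lines mark the median (n = 5). Cyp2a4 falls to 19.5 CPM in Isotype + CORT and reaches 1285 CPM in αACBP + Vehicle, and 1 Isotype + CORT liver reaches 5840 CPM for Cyp3a11.

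Whether αACBP altered levels under CORT was tested between the CORT groups. No member was called with edgeR, where 0.597% of all genes tested were called. At an unadjusted p with the fold limit there were 4 (Cyp2b10, Cyp2c39 and Cyp2d9 lower, Cyp2s1 higher) against 3.24% of all genes tested. DESeq2 called Cyp2d9, where it called 1.30% of the genes it gave an adjusted p, and limma voom called no member, where it called 0.355%. Cyp2d9 had a log2 fold change of -1.19 (SE 0.41, adjusted p = 0.194), and without Isotype + CORT replicate 3 it passed both limits (-1.45, adjusted p = 0.0142). Cyp2b10 had -1.25 (SE 0.53, adjusted p = 0.336). No member had groups that did not overlap, where 3.22% of all genes tested did. For Cyp2j5, Cyp2c50, Cyp2c38 and Cyp2c40 the ranges in αACBP + CORT (185 to 390, 260 to 509, 75.5 to 124 and 148 to 338 CPM) overlapped those in Isotype + CORT (269 to 402, 236 to 390, 103 to 144 and 159 to 336 CPM).

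The difference between the antibody's effect with and without CORT was tested as an interaction. No member was called with edgeR, where 0.143% of all genes tested were. At an unadjusted p with the fold limit there were 4 (Cyp2c40, Cyp2c50 and Cyp2s1 above 0, Cyp2a5 below 0) against 4.92% of all genes tested. DESeq2 called Cyp2c50, where it called 1.61% of the genes it gave an adjusted p, and limma voom called no member, where it called 0.305%. For Cyp2c50 the interaction was 1.10 on the log2 scale (SE 0.28, adjusted p = 0.0806), for Cyp2c40 it was 1.07 (SE 0.39, adjusted p = 0.277) and for Cyp2j5 0.73 (SE 0.29, adjusted p = 0.322). Cyp2c50 passed both limits without Isotype + Vehicle replicate 4 (1.23, adjusted p = 0.0496), Isotype + CORT replicate 4 (1.24, adjusted p = 0.0476) or αACBP + CORT replicate 5 (adjusted p = 0.0435), and so did Cyp2a5 without the last of these (-2.06, adjusted p = 0.0154). With all livers, edgeR thus did not show a different effect of αACBP in the presence of CORT for these genes, nor an equal one. For Cyp2c50 the outcome depended on the tool, since DESeq2 called it with all livers.

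Between αACBP + CORT and Isotype + Vehicle, no member was called with edgeR or DESeq2, where edgeR called 0.0684% of all genes tested and DESeq2 0.548% of those it gave an adjusted p. Limma voom called Cyp2c55, where it called 0.933%, and no member passed at an unadjusted p with the fold limit, where 1.39% of all genes tested did. Without the fold limit, Cyp2d9 (0.99, SE 0.41, adjusted p = 0.514) and Cyp2d26 (0.40, SE 0.16, adjusted p = 0.448) had an unadjusted p of 0.05 or less, both with higher levels in αACBP + CORT. Groups did not overlap for Cyp2d9, Cyp2d12 and Cyp1a1, 3 of the 48 members, against 3.31% of all genes tested. Cyp2d12 had 0 to 0.542 CPM in Isotype + Vehicle and 0.689 to 2.38 CPM in αACBP + CORT (adjusted p = 0.667, edgeR). Cyp1a1 had 1.08 to 1.57 and 0 to 0.702 CPM in these groups (adjusted p = 0.746, edgeR). Both levels were low, and the lower group of each reached 0 CPM. The lowest Cyp2d9 level in αACBP + CORT was 56.4 CPM and the highest in Isotype + Vehicle 55.3 CPM.

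The members grouped by known control showed the following. Of the 7 female-biased members (Cyp2a4, Cyp2b9, Cyp2b13, Cyp2c40, Cyp2c69, Cyp3a16 and Cyp3a44), edgeR called none in any comparison of the fit used throughout. In that fit Cyp2c40 alone passed the limit on p. Alternative edgeR fits did make calls, with Cyp2c40 called for αACBP under vehicle in the replicate block fit. DESeq2 and limma voom called Cyp2a4 with CORT, and limma voom called Cyp2c40 with αACBP under vehicle. With CORT under the isotype 6 had fold changes below 0 with a median of -0.26. The 7 members listed here as induced through Nr1i3 or Nr1i2 were Cyp2b10, Cyp2c29, Cyp2c37, Cyp2c50, Cyp2c54, Cyp2c55 and Cyp3a11, and the list may be incomplete. All 7 had fold changes below 0 with αACBP under vehicle, with a median of -0.81 and a range of -1.67 to -0.33. Cyp2c50 alone of them passed the limit on p. Of these 7, 5 are Cyp2c genes, and all 13 tested Cyp2c members had fold changes below 0 in that comparison, with a median of -0.71. Some Cyp2c members share sequence and may share reads, so the 13 are not independent. The summed levels of the 7 listed members ran from 1140 to 2044 CPM in αACBP + Vehicle and from 2089 to 3552 CPM in Isotype + Vehicle. Cyp3a11 was the largest part of these sums. Its means were 724 CPM of a summed mean of 1714 CPM in αACBP + Vehicle and 1448 CPM of 2911 CPM in Isotype + Vehicle. The 8 pericentral members, which include Cyp1a2 and Cyp2e1, had a median of -0.46 with αACBP under vehicle and of 0.02 with CORT under the isotype. The 8 hepatocyte markers also had a median of -0.46 with αACBP under vehicle, with 5 below 0 and 3 above. Targets of the aryl hydrocarbon receptor were not called. Cyp1a2, which metabolizes caffeine, had 241 to 519 CPM in Isotype + Vehicle and 196 to 366 CPM in Isotype + CORT (-0.53, SE 0.23, adjusted p = 0.240). Cyp1b1 stayed at or below 1.57 CPM in all livers.

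The remaining members named for the level in their subfamily were not called in any comparison. Cyp2e1 ranged from 1457 to 4710 CPM over the 20 livers and Cyp2d26 from 911 to 1716 CPM. Cyp2d26 was higher with CORT without overlap under either antibody, by 0.39 (SE 0.16, adjusted p = 0.201) under the isotype and 0.44 (SE 0.16, adjusted p = 0.214) under αACBP. Cyp2f2, which oxidizes naphthalene, ranged from 199 to 575 CPM, Cyp2c37 from 379 to 777 CPM and the vitamin D hydroxylase Cyp2r1 from 6.16 to 24.0 CPM. Cyp2u1, Cyp2t4 and Cyp2g1 were lower still, at 1.03 to 13.8, 2.90 to 8.25 and 0 to 12.2 CPM. Of the exon length of Cyp2t4, 98.2% is overlapped by Egln2 on the opposite strand, and without the strand setting reads of the pair cannot be told apart.

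Among 33 partner genes of the P450 system, 1 (3.03%) was called with CORT under the isotype, where 1.94% of all genes tested were. With αACBP under vehicle 3 (9.09%) were called, where 1.30% of all genes tested were. None was called in the other comparisons, where the shares over all genes tested were 0.0684 to 0.597%. Ephx1, the microsomal epoxide hydrolase, rose with CORT from 157 to 270 CPM in Isotype + Vehicle to 312 to 1102 CPM in Isotype + CORT (1.21, SE 0.32, adjusted p = 0.0383). With αACBP under vehicle, Por rose (93.5 to 196 CPM against 240 to 324 CPM, 1.02, SE 0.26, adjusted p = 0.0264). In the same comparison the transcription factor gene Cebpb rose (1.04, SE 0.28, adjusted p = 0.0324) and Nr0b2, which encodes the repressor SHP, fell (-1.16, SE 0.27, adjusted p = 0.0159). Nr1i3 had 546 to 900 CPM in Isotype + Vehicle, 995 to 1648 in Isotype + CORT and 902 to 1172 in αACBP + Vehicle. It passed the limit on p but not on fold for CORT (0.95, SE 0.17, adjusted p = 0.00155) and for αACBP (0.63, SE 0.17, adjusted p = 0.0274). Ahr and Nr1i2 differed by 0.17 or less on the log2 scale in the comparisons of 1 treatment. No growth hormone pathway gene, no heme gene and no electron donor other than Por was called. On the limit on p alone, 1 of 5 electron donors was lower with CORT under the isotype (adjusted p = 0.0228, edgeR). With αACBP under vehicle, 1 of 5 electron donors and 1 of 6 growth hormone pathway genes (adjusted p = 0.0444, edgeR) were lower on that limit. There 5.14% of all genes tested passed it in either direction.

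Other cell types and the clock moved in these comparisons as well. With CORT under the isotype, 4 of 6 Kupffer cell and macrophage markers and 1 of 5 B cell markers were called lower, where 1.94% of all genes tested were called. The summed Kupffer levels were 116 to 341 CPM against 311 to 593 CPM in Isotype + Vehicle. With αACBP under CORT, 2 of the 6 Kupffer markers were called higher, where 0.597% of all genes tested were called. With αACBP under vehicle, 5 of 15 clock genes were called (Dbp, Tef and Ciart higher, Arntl and Nfil3 lower), where 1.30% of all genes tested were. Called in the same comparison were 1 of 6 stellate markers (Lrat, lower) and 1 adipocyte marker (Cfd, lower). No hepatocyte, T and NK cell, endothelial, cholangiocyte, acinar or erythroid marker was called in any comparison. Dbp, which encodes a circadian PAR bZIP factor, had 5.42 to 23.5 CPM in Isotype + Vehicle and 151 to 611 CPM in αACBP + Vehicle. Summed hepatocyte markers were 69418 to 119900 CPM in Isotype + Vehicle and 39254 to 92797 CPM in αACBP + Vehicle. Of the 15 clock genes, 1 was called with CORT under the isotype (Hlf, higher). Nfil3 was called for CORT under αACBP (higher) and for the interaction, where 0.212% and 0.143% of all genes tested were called. The adipocyte markers Adipoq, Plin1 and Cfd and the acinar markers Ctrb1, Pnlip, Cpa1 and Prss2 were at 0 in at least 10 of the 20 livers. The part of these differences in the P450 results was not tested.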

How the data were processed

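Liver RNA from 20 mice (4 groups of 5) was sequenced. The authors deposited raw counts per gene. Per the labels and the study's methods, reads were aligned with HISAT2 and counted with HTSeq (union mode, non-unique features kept). The methods name GRCm39 and the labels mm10, and the annotation release and strand setting are not given in the sources used here. Closing rows that name no gene held 59.6 to 63.4% of each library (no feature, 42.3 to 45.2%; not unique, 5.92 to 10.6%) and were left out.

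Counts were filtered by filterByExpr, scaled by TMM and tested in 1 model of the 4 groups with edgeR 4.0.16 (robust quasi-likelihood, R 4.3.3). DESeq2 1.42.0, limma voom 3.58.1 and other filters, scalings and sample sets were alternatives, and the edgeR, DESeq2 and voom steps were tested on simulated data. Replicates are separate mice per the labels, and no pair of livers within a group agreed within sampling noise (chi-square per degree of freedom at least 12.4 over 40 pairs). Overlaps, exon lengths and shared 100-base words came from GENCODE M39 (GRCm39), in which all 58 members were matched by identifier.

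Named were members at an adjusted p of 0.05 or less, the highest member per kilobase of each subfamily with a tested member, the 5 highest per kilobase, partner genes called, and Por, Ahr, Nr1i2 and Nr1i3. Other members (Cyp2a4, Cyp2c55, Cyp1a1, Cyp2d12 and Cyp2d22 among them) are named because their groups did not overlap or an alternative called them, chosen after their values were seen. The members and gene lists were chosen with earlier results of these data known. SEs include the variation between livers. The floor of 3 counts covers counting error only.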

Additional observations from a re-analysis of the deposited data

Results flagged for a closer look

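In groups of 5 livers, every tested member, the sums of 7 subfamilies and 7 partner genes (Por, Ahr, Nr1i2, Nr1i3, Ephx1, Cebpb and Nr0b2) were searched for a liver far from the other 4 by Dixon's test at the critical ratio of 0.71. Over 247 such groups, a rate of 1 in 20 for normally distributed and independent values would give 12.4 flags, and 27 were found. The sums contain members also searched singly, and the distribution of the levels was not tested. The 12.4 is therefore only a guide, and no excess is claimed.

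Isotype + CORT replicate 5, which stood apart over all genes, was far above the other livers of its group for Cyp3a11 (5840 CPM, the next at 2085), Cyp2c29 (1234 CPM, the next at 243), Cyp2d40 (218 CPM, the next at 76.0) and Por (510 CPM, the next at 233). Cyp3a11 was far below the others in αACBP + Vehicle replicate 5 (332 CPM, the next at 790). In αACBP + CORT replicate 5, Cyp2a5 was high (1082 CPM, the next at 309), as were Cyp2g1 (9.51 CPM), Cyp2r1 (9.02 CPM) and Cyp2d12 (2.38 CPM).

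Female-biased members gave 5 flags, all high. They were Cyp3a44 in Isotype + CORT replicate 1 (149 CPM, the next at 26.9), αACBP + Vehicle replicate 4 (205 CPM, the next at 37.8) and αACBP + CORT replicate 1 (160 CPM, the next at 54.7), Cyp3a16 in Isotype + Vehicle replicate 1 (58.6 CPM) and Cyp2c69 in Isotype + CORT replicate 1 (768 CPM, the next at 319). Cyp1a1 was high in Isotype + CORT replicate 1 (3.83 CPM) and low in Isotype + Vehicle replicate 5 (1.08 CPM).

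In Isotype + Vehicle replicate 4, Cyp2c38 (64.7 CPM, the next at 104) and Ephx1 (157 CPM) were low and Cyp3a25 was high (1234 CPM). Replicate 5 of that group was high for Cyp2j6 (85.5 CPM) and Cyp2g1 (5.63 CPM). Cyp2e1 was high in Isotype + CORT replicate 4 (4710 CPM, the next at 3196). Under αACBP + Vehicle, Cyp2c54 was high in replicate 2 (309 CPM, the next at 152), Cyp2j8 in replicate 1 (3.57 CPM) and Cyp1b1 in replicate 3 (1.57 CPM). Under αACBP + CORT, Cyp2u1 was high in replicate 4 (13.1 CPM) and Nr1i2 in replicate 3 (178 CPM).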

How the results depend on the processing

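For CORT under the isotype, the count of 2 called members became 4 with DESeq2's Wald test, 5 at an unadjusted p, and 1 (Cyp2d9) with no filter beyond 1 count, with library sizes without the 20 most abundant genes, with only the groups compared and with the replicate block, stayed 2 with limma voom with Cyp2a4 in place of Cyp2b10, and was 1 to 2 with each liver left out. For αACBP under CORT, the 0 became 1 with DESeq2, 4 at an unadjusted p and 0 to 1 with each liver left out. For CORT under αACBP, the 0 became 3 with DESeq2, 3 with limma voom, 1 with only the groups compared, 4 at an unadjusted p and 0 to 2 with each liver left out (Cyp2c38 without αACBP + Vehicle replicate 2, Cyp2a5 and Cyp2b10 without αACBP + CORT replicate 5). For αACBP under vehicle, the 0 became 2 with DESeq2, 1 without the 20 most abundant genes, 3 with voom, 5 with only the groups compared, 1 with the replicate block (Cyp2c40), 3 at an unadjusted p, 4 without a fold limit and 0 to 2 with each liver left out (Cyp2c40 with Cyp2j5 without Isotype + Vehicle replicate 4 or αACBP + Vehicle replicate 4, and with Cyp2c38 without αACBP + Vehicle replicate 2). Between αACBP + CORT and Isotype + Vehicle, the 0 became 1 with voom and was 0 with each liver left out. For the interaction, the 0 became 1 with DESeq2, 4 at an unadjusted p and 0 to 2 with each liver left out (Cyp2c50 without Isotype + Vehicle replicate 4 or Isotype + CORT replicate 4, and with Cyp2a5 without αACBP + CORT replicate 5). The share of all genes called was not computed for the other filters, scalings and sample sets, nor for the replicate block. Member counts under those settings therefore cannot be set against all genes. The cause of these changes was not tested.

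Member fold changes were followed under the alternatives where their unadjusted p was 0.05 or less. Members at an adjusted p of 0.05 or less in any comparison were followed in every comparison. Of these values, 1228 kept direction and call, 37 gained a call, 12 lost one and 13 changed sign, all 13 being close to 0. The direction of the other member fold changes was not followed. Between αACBP + CORT and Isotype + Vehicle, Cyp2c38 was -0.0005 without the 20 most abundant genes, -0.05 with voom and -0.10 to 0.11 with each liver left out, where Cyp2c40 ran from -0.27 to 0.01 and Cyp2c50 from -0.19 to 0.06. With each liver left out, Cyp2c40 ran from -0.06 to 0.21 for αACBP under CORT and Cyp2j5 from -0.15 to 0.04 for CORT under the isotype. The shifts of all 455 alternative subfamily ratios were smaller than the spread between livers. Of these, 350 came from leaving out a liver, which can hardly shift a group mean by that much. These 350 therefore say nothing on stability. The rest were 35 each with levels per kilobase, with DESeq2 size factors and without the 20 most abundant genes. No scaling put the median of all genes further than 0.04 from 0.

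Livers with the same replicate number did not deviate together (30 pairs, correlations from -0.10 to 0.10, 5 of 30 highest with their own number), so no pairing by number was seen. Correlations over all genes cannot exclude a small effect shared by livers of the same number. With the replicate block Cyp2b10 lost its call for CORT under the isotype and Cyp2c40 gained one for αACBP under vehicle, and no other count changed.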
